A study of Mus musculus with 12 samples.

Results

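Lipoxygenases and cyclooxygenases are the enzymes that turn arachidonic acid and related polyunsaturated fatty acids into eicosanoids. The 10 genes described here are Alox5, Alox5ap, Alox8, Alox12, Alox12b, Alox12e, Alox15, Aloxe3, Ptgs1 and Ptgs2. They were chosen by symbol as the lipoxygenase genes, the lipoxygenase-activating protein and the cyclooxygenase genes among the 50684 genes of the count table, and all 10 passed the filter on low counts together with 19408 genes in all. The choice rested in part on a measured pattern, namely that Alox8 followed IL-36γ far more than IL-17A. The levels of Alox8 are therefore given as a description without a test, and the tests cover the other 9 genes.

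The study injected cytokines into the ears of C57BL/6 mice to model the cytokine network of psoriasis, and RNA of the ear skin was measured by RNA-Seq in 12 mice, 3 in each of 4 groups. Per the labels, the IL-17A group received 1 µg of IL-17A, the IL-36γ group 1 µg of IL-36γ and the IL-17A + IL-36γ group 1 µg of each, all intradermally in PBS at a volume of 5 µl, and the PBS group received PBS alone. All mice were 8 weeks old and carried no transgene or deletion named in the labels, and the ears were taken after 4 days. The paper describes the treatment as consecutive over this time, so the dose need not stand for a single injection. How often the cytokines were injected is not stated there. Each library is a separate mouse of the 5 per group in the study, and each library is bulk skin, so that more cells of a type and more RNA per cell cannot be told apart.

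Free arachidonic acid is cut from membranes by phospholipases A2. Cyclooxygenases convert it to prostaglandin H, the precursor of the prostaglandins and thromboxane, and 5-lipoxygenase converts it to leukotrienes with the help of an activating protein. In the skin, a separate pair of lipoxygenases, encoded by Alox12b and Aloxe3, acts in the epidermis on linoleic acid bound in ceramides and is needed for the lipid envelope of the cornified layer.

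Depth ranged from 25293468 to 34759293 counts per library, and levels are given as CPM, each count relative to the TMM-adjusted total of its library. The labelled tissue was checked with marker genes, and the summed level of 5 suprabasal keratinocyte markers ranged from 5807 to 18339 CPM over all libraries, and that of 4 fibroblast markers from 3612 to 7915 CPM. No marker of the 11 cell type lists used was at 0 in all libraries. The injected ears differed in their cell markers, since the summed level of 6 neutrophil markers was 7.73 to 14.3 CPM in PBS ears, 20.7 to 57.6 CPM after IL-17A, 56.7 to 81.7 CPM after IL-36γ and 96.1 to 195 CPM after both cytokines. The summed level of 6 skeletal muscle markers also set libraries apart, with 176 CPM in PBS replicate 1 against 1666 and 1991 CPM in the other PBS libraries, and 101 to 727 CPM after both cytokines.

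Of the 10 genes, 6 lie in a pair of groups on chromosome 11 (GRCm38). Aloxe3, Alox12b and Alox8 lie side by side at chr11:69125896-69197843, a stretch of 71.9 kb, and Alox12, Alox12e and Alox15 lie at chr11:70241457-70352031, a stretch of 111 kb. In the GENCODE annotation used here, 0 other genes lay within either stretch. No window of 76 bases in the exons of the 10 genes was shared with the exons of another gene. Close neighbours behaved differently in these ears, as the values below show.

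The 250 bases before the RefSeq start sites of Alox8 and Ptgs2 are shown because Alox8 had the largest fold change of the 10 genes and Ptgs2 alone was called raised in all 3 comparisons with PBS. The windows are chr11:69197844-69198093 on the minus strand for Alox8 and chr1:150099781-150100030 on the plus strand for Ptgs2, in the RefSeq annotation of GRCm38.p6. Both are written 5′ to 3′ along the gene, and capitals mark the match to the C/EBP motif TTGCNNAA.
Alox8: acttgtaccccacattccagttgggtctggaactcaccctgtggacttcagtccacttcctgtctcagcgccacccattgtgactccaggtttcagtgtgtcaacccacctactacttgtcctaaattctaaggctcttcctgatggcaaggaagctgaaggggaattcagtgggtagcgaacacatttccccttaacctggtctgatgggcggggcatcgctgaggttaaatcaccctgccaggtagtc
Ptgs2: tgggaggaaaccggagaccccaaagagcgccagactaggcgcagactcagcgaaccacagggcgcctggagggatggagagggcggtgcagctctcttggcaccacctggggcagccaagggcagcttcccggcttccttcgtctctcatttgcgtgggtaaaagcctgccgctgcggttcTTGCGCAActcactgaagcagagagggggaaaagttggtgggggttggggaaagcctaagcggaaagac

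A promoter window, from 250 bases before to 50 bases after the start site, was at hand for 7 of the 10 genes, with Alox5ap, Alox15 and Aloxe3 missing. None of the 7 windows held, on either strand, the NF-kappaB motif or the letters TGANTCA of AP-1, TTCNNNGAA of STAT or TATAAA of the TATA box. These motifs were present in 4.79%, 7.81%, 8.3% and 13.6% of 32851 promoter windows of the same length. After the windows had been read, C/EBP, the E-box CACGTG and the CRE letters TGACGT were added to the search. The Ptgs2 window alone held matches, with the C/EBP letters starting at base -69, CRE letters starting at base 13 on the opposite strand, and the E-box, which overlaps the CRE letters, starting at base 17. These letters occur in 10.8%, 7.51% and 7.15% of all promoter windows for C/EBP, CRE and the E-box, and a match or its lack describes the letters of the window only.

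The arachidonate 8S-lipoxygenase gene Alox8, known in mouse skin as an inducible lipoxygenase, had the widest range of the 10 genes. The 3 PBS libraries held 58, 289 and 33 counts of Alox8, which corresponded to 1.61, 8.18 and 1.00 CPM. After IL-17A the libraries held 10.97, 10.4 and 21.1 CPM, after IL-36γ 242, 307 and 193 CPM, and after both cytokines 445, 198 and 276 CPM.
All 6 libraries with IL-36γ lay far above the 6 without it, and the IL-36γ and IL-17A + IL-36γ groups overlapped. PBS replicate 2 stood above the other PBS libraries and close to the lower IL-17A libraries. The log2 fold change of Alox8 against PBS was 1.96 with IL-17A alone, 6.09 with IL-36γ alone and 6.41 with both. For IL-36γ against IL-17A it was 4.13. Without PBS replicate 2 the 3 changes against PBS were 3.41, 7.55 and 7.87, so this library set the size of all of them. PBS replicate 2 also held the highest summed level of the PBS libraries for the stressed keratinocyte markers (267 CPM), the monocyte and macrophage markers (779 CPM) and the neutrophil markers (14.3 CPM), and the part of these cells in its Alox8 level was not tested.

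**Figure D1:**
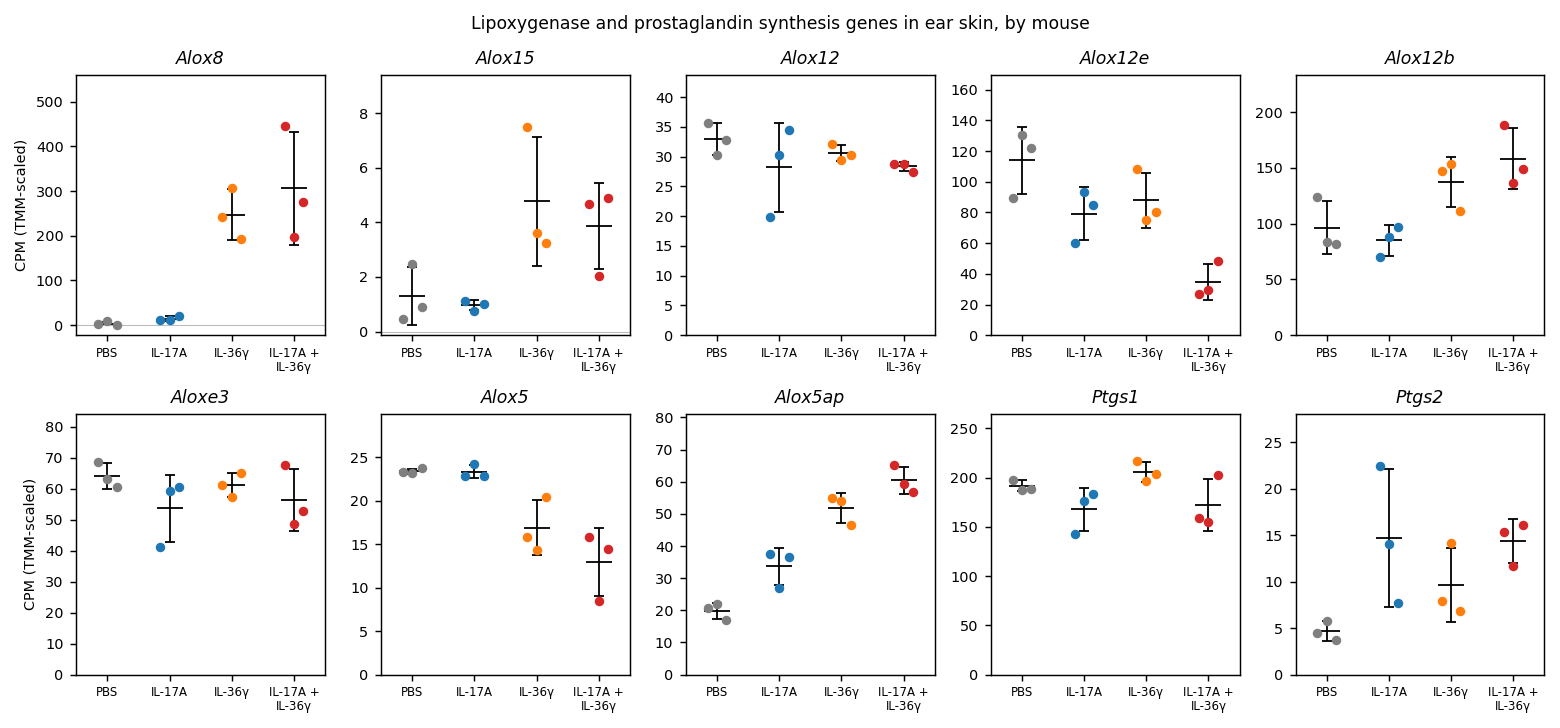
CPM (TMM-scaled, linear y axes that differ between genes) of the 10 genes by group, with a point for each of 3 mice, a long line at the group mean and bars for 1 SD. Alox8 lies at 193 to 445 CPM in the 6 libraries with IL-36γ and at 1.00 to 21.1 CPM in the 6 without it, and Alox12e lies lowest in the 3 libraries with both cytokines.

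The tests of the other 9 genes used the quasi-likelihood F test of edgeR in 1 fit of the 12 libraries, with Benjamini-Hochberg adjustment over all genes tested. A call needed an adjusted p-value below 0.05 and a log2 fold change beyond 1 in either direction. The 3 comparisons with PBS share the PBS mice. After IL-17A, 1 of 9 genes was called, Ptgs2 raised, where 2.1% of all genes were called and 1.07% were called raised. After IL-36γ, 3 of 9 were called, all raised (Alox5ap, Alox15 and Ptgs2), where 7.1% of all genes were called and 5.11% were called raised. After both cytokines the same 3 genes were raised and Alox12e was lowered, where 13.4% of all genes were called, 7.35% raised and 6.06% lowered. With the adjusted p-value alone as the criterion, 2, 3 and 6 of the 9 genes passed in the 3 comparisons, beside 10.9%, 28.4% and 44.6% of all genes. The libraries of the group did not overlap with those of PBS for 4, 4 and 6 of the 9 genes in the 3 comparisons, beside 33.6%, 41.7% and 52.5% of all genes.

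**Figure D2:**
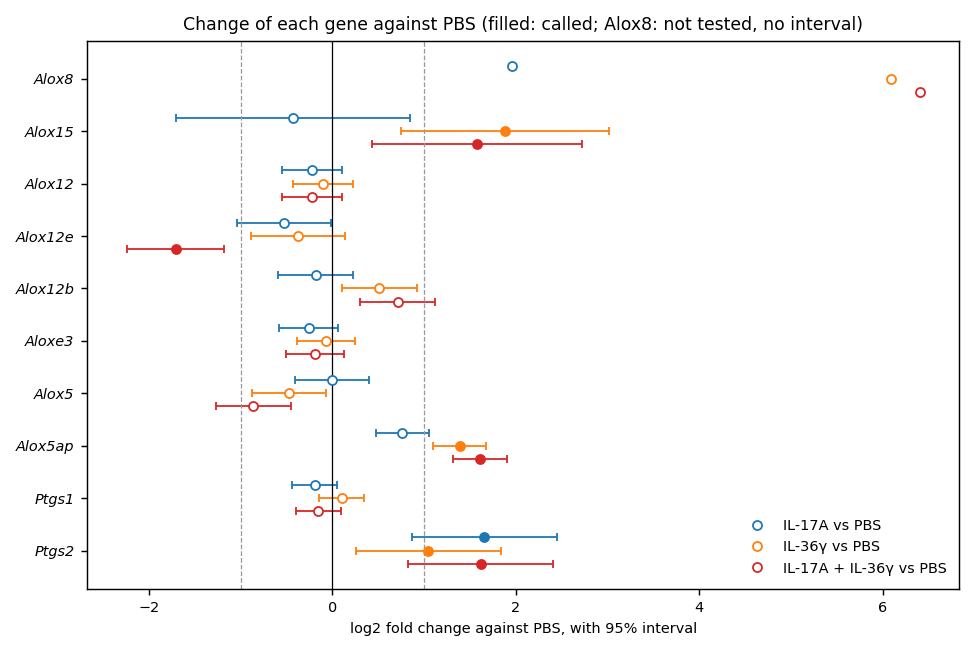
Log2 fold change against PBS of the 10 genes after IL-17A, IL-36γ and both cytokines (x axis, log2 scale), with bars for the 95% interval of the edgeR fit, filled points for called genes, dashed lines at the fold change threshold, and no bar for Alox8, which was not tested. Alox8 lies at 1.96, 6.09 and 6.41, and Alox12e has its lowest value, -1.71, after both cytokines.

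The cyclooxygenase genes differed in level and in response. Ptgs1 on chromosome 2 (chr2:36230426-36252272) encodes the constitutive cyclooxygenase and was the most abundant of the 10 genes per length in the PBS ears, at 49.3 ± 1.43 RPKM (SD, n = 3), where RPKM is the CPM per kilobase of exon. Its level was 198, 188 and 189 CPM in PBS ears, 143, 177 and 184 CPM after IL-17A, 217, 197 and 204 CPM after IL-36γ, and 159, 155 and 203 CPM after both. The groups lay within a narrow range, all 3 IL-17A libraries were below the PBS libraries, and no comparison of Ptgs1 with PBS was called by edgeR, with adjusted p-values of 0.266, 0.502 and 0.289.

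Ptgs2 on chromosome 1 (chr1:150100031-150108227) encodes the inducible cyclooxygenase. Its level was 4.48, 5.80 and 3.70 CPM in PBS ears, 22.4, 14.1 and 7.64 CPM after IL-17A, 7.92, 14.1 and 6.82 CPM after IL-36γ, and 15.3, 11.7 and 16.1 CPM after both. All 9 cytokine libraries lay above all 3 PBS libraries, the 3 cytokine groups overlapped with one another, and IL-17A replicate 1 held the highest value.
On the log2 scale Ptgs2 changed by 1.66 after IL-17A (SE 0.36, edgeR adjusted p = 0.0235), 1.05 after IL-36γ (SE 0.36, adjusted p = 0.0488) and 1.62 after both (SE 0.36, adjusted p = 0.0037). The rise after both cytokines was called under every alternative run. The call after IL-17A was lost when only the 2 groups entered the fit (adjusted p = 0.0752) and without IL-17A replicate 1 (log2 change 1.19, adjusted p = 0.117), IL-17A replicate 2 (adjusted p = 0.0514), PBS replicate 2 (adjusted p = 0.0528) or PBS replicate 3 (adjusted p = 0.12). The call after IL-36γ was lost with RLE size factors (adjusted p = 0.0511), with library size as the only scaling (adjusted p = 0.0674), and without either IL-36γ replicate 1 or 2 or any 1 of the PBS libraries, with log2 changes of 0.66 without IL-36γ replicate 2 and 1.02 without PBS replicate 1. Relative to Ptgs1 per exon length, Ptgs2 stood at 1.66 to 2.62 per 100 of Ptgs1 after PBS and at 6.40 to 8.14 after both cytokines, with 3.53 to 13.3 after IL-17A and 2.83 to 6.09 after IL-36γ. The change by IL-17A was 1.09 lower on the log2 scale in the presence of IL-36γ than in its absence, which edgeR did not call (SE 0.50, adjusted p = 0.225).

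The leukotriene genes Alox5 and Alox5ap had changes of opposite sign in the ears with IL-36γ. Alox5 on chromosome 6 (chr6:116410077-116461178) encodes arachidonate 5-lipoxygenase, the enzyme that starts leukotriene synthesis. The PBS libraries held 23.3, 23.2 and 23.7 CPM of Alox5 and the IL-17A libraries 22.9, 24.2 and 22.9 CPM, against 15.8, 14.4 and 20.4 CPM after IL-36γ and 15.8, 8.45 and 14.4 CPM after both.
All 6 libraries with IL-36γ lay below the 6 without it. Its log2 fold change against PBS was -0.00 after IL-17A (SE 0.18, edgeR adjusted p = 0.99), -0.47 after IL-36γ (SE 0.19, adjusted p = 0.0748) and -0.86 after both (SE 0.19, adjusted p = 0.0032). The last passed the adjusted p-value and not the threshold on the fold change, and it passed both with library size as the only scaling (-1.005) and without IL-17A + IL-36γ replicate 1 (-1.03). Between both cytokines and IL-36γ alone the change of Alox5 was -0.39 (SE 0.19, edgeR adjusted p = 0.358).

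Alox5ap on chromosome 5 (chr5:149264767-149288153) encodes the protein that presents arachidonic acid to 5-lipoxygenase. Its level was 20.7, 21.8 and 16.8 CPM in PBS ears, 37.4, 26.9 and 36.6 CPM after IL-17A, 54.9, 53.9 and 46.5 CPM after IL-36γ, and 65.2, 59.2 and 56.8 CPM after both. The 4 groups did not overlap and stood in the order PBS, IL-17A, IL-36γ and both cytokines.
On the log2 scale Alox5ap changed by 0.77 after IL-17A (SE 0.13, edgeR adjusted p = 0.0149), which was too small to be called, 1.39 after IL-36γ (SE 0.13, adjusted p = 5.59e-05) and 1.61 after both (SE 0.13, adjusted p = 1.24e-05). The step from IL-36γ to both cytokines was 0.22 (SE 0.13, 95% interval -0.06 to 0.50) and was not called (edgeR adjusted p = 0.439), and the interaction was -0.54 (SE 0.19, adjusted p = 0.123). Alox5ap and Alox5 are both genes of myeloid cells. The monocyte and macrophage markers summed to 654 to 779 CPM in PBS ears, 1082 to 1399 CPM after IL-17A, 1674 to 1842 CPM after IL-36γ and 1609 to 1814 CPM after both, whereas the mast cell markers summed to 206 to 232 CPM after PBS and 217 to 238 CPM after both. Of 7 monocyte and macrophage markers, 1, 6 and 6 were called raised in the 3 comparisons with PBS. Of 6 neutrophil markers 3, 5 and 6 were, and of 6 mast cell markers 0, 0 and 1. Over all genes, 1.07%, 5.11% and 7.35% were called raised. The mast cell markers did not move alike, so their sum hides changes in opposite directions. Kit lay lower without overlap, at 16.64 to 19.54 CPM after PBS and 8.779 to 13.04 CPM after both. Hdc lay higher without overlap, at 8.997 to 18.06 CPM after PBS and 22.86 to 40.11 CPM after both. Cpa3, Mcpt4, Tpsb2 and Cma1 overlapped. The neutrophil marker Ly6g was at 0 CPM in PBS ears and at 0.549 to 0.858 CPM after both. It passed the filter on low counts only through the libraries with both cytokines, so its call there was in part set by the filter. The part of these cells in the levels of Alox5 and Alox5ap was not tested.

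The epidermal barrier pair Alox12b and Aloxe3 lies within the same stretch of chromosome 11 as Alox8 and did not share its range. Alox12b (chr11:69156989-69169792) encodes the 12R-lipoxygenase of the epidermis. Its level was 124, 83.9 and 81.7 CPM in PBS ears, 69.8, 88.2 and 97.1 CPM after IL-17A, 147, 154 and 111 CPM after IL-36γ, and 189, 137 and 149 CPM after both.
The libraries with both cytokines lay above all PBS and IL-17A libraries, and PBS replicate 1 overlapped with the IL-36γ libraries. The log2 fold change was -0.18 after IL-17A (SE 0.19, edgeR adjusted p = 0.54), 0.51 after IL-36γ (SE 0.19, adjusted p = 0.0603) and 0.71 after both (SE 0.19, adjusted p = 0.0094), so that no comparison with PBS passed both thresholds. Against IL-17A, Alox12b was higher by 0.69 after IL-36γ (SE 0.19, edgeR adjusted p = 0.0452) and by 0.89 after both (SE 0.19, adjusted p = 0.0043), again under the threshold on the fold change. The adjusted p-value of the former rose above 0.05 without any 1 of the IL-17A libraries or without IL-36γ replicate 1 or 2, to between 0.056 and 0.168. Of 5 suprabasal keratinocyte markers, 3 were called raised after IL-36γ and 3 after both cytokines, beside 5.11% and 7.35% of all genes. The 5 markers summed to 5807 to 9664 CPM after PBS and to 15622 to 17974 CPM after both. PBS replicate 1, the PBS library with the highest Alox12b, held the 9664 CPM, against 5837 and 5807 CPM in replicates 2 and 3. Krt1 rose from 296 to 527 CPM after PBS to 5716 to 8074 CPM after both. Flg and Ivl also rose without overlap, while Krt10 and Lor overlapped. The part of these cells in the level of Alox12b was not tested.

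Aloxe3 (chr11:69125896-69149115) encodes the hydroperoxide isomerase that acts on the product of the 12R-lipoxygenase. Its level was 68.8, 63.2 and 60.6 CPM in PBS ears, 41.3, 59.2 and 60.5 CPM after IL-17A, 61.3, 57.4 and 65.2 CPM after IL-36γ, and 67.7, 48.8 and 52.9 CPM after both. The 3 IL-17A libraries lay below all PBS libraries, IL-17A replicate 1 by the widest margin. IL-17A replicate 3 at 60.54 CPM all but met PBS replicate 3 at 60.56 CPM. The other groups overlapped with PBS. The log2 changes of -0.26, -0.07 and -0.19 were not called by edgeR, with adjusted p-values of 0.248, 0.753 and 0.318.

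The second stretch of chromosome 11 held genes with 3 different patterns. Alox12e (chr11:70315610-70322628) encodes the epidermal 12S-lipoxygenase and, per exon length, stood beside Alox12b in the PBS ears, at 40.4 ± 7.71 and 39.7 ± 9.72 RPKM (SD, n = 3) with overlapping libraries. Its level was 89.4, 131 and 122 CPM in PBS ears, 60.0, 93.1 and 84.6 CPM after IL-17A, 108, 74.9 and 80.5 CPM after IL-36γ, and 26.9, 29.3 and 48.4 CPM after both.
The 3 libraries with both cytokines lay below the other 9 libraries, while the single-cytokine groups each overlapped with PBS. Its log2 fold change was -0.53 after IL-17A (SE 0.24, edgeR adjusted p = 0.153), -0.38 after IL-36γ (SE 0.23, adjusted p = 0.245) and -1.71 after both (SE 0.24, adjusted p = 0.00022). Against IL-17A alone the level after both fell by 1.18 on the log2 scale (SE 0.24, edgeR adjusted p = 0.0036).
Against IL-36γ alone, the value after both cytokines was 1.33 lower on the log2 scale, with an unadjusted p-value of 0.0001 and an edgeR adjusted p-value of 0.0927, so that it was not called. The same difference was called by the likelihood ratio test of DESeq2 (adjusted p = 0.000182), by edgeR with no filter on low counts (adjusted p = 0.0038), without IL-17A + IL-36γ replicate 3 (log2 change -1.63) and without IL-36γ replicate 2 (-1.44). The interaction was -0.81 (SE 0.34, edgeR adjusted p = 0.187). Alox12e is also a gene of sebaceous glands. The 4 gland markers summed to 107 to 211 CPM after PBS and 103 to 165 CPM after both. In that comparison 0 of 4 were called, beside 13.4% of all genes, with a median log2 change of -0.72. After IL-36γ 1 was called lowered, beside 1.98% of all genes. Most of the sum was Elovl3, at 80.8 to 189 CPM after PBS and 92.6 to 152 CPM after both. Awat2 lay lower without overlap, at 6.82 to 9.61 CPM after PBS and 4.01 to 4.99 CPM after both. So did Mc5r, at 7.36 to 10.96 CPM and 4.448 to 7.101 CPM, while Scd3 overlapped. The part of the glands in the fall of Alox12e was not tested.

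Alox12 (chr11:70241457-70255353) encodes the platelet-type 12S-lipoxygenase, which is also made in the epidermis. Its level was 35.7, 30.4 and 32.8 CPM in PBS ears, 19.9, 30.2 and 34.4 CPM after IL-17A, 32.1, 29.5 and 30.3 CPM after IL-36γ, and 28.8, 28.8 and 27.5 CPM after both. The low value of IL-17A replicate 1 aside, the libraries lay close together, and edgeR called no change against PBS, with log2 values of -0.23, -0.10 and -0.22 and adjusted p-values of 0.329, 0.622 and 0.261. Of the 5 platelet markers, 4 were tested and 1, 3 and 3 of them were called raised in the same comparisons, beside 1.07%, 5.11% and 7.35% of all genes. These markers did not move alike. Pf4 was at 34.1 to 51.2 CPM after PBS and 98.7 to 143 CPM after both. Itga2b overlapped, at 8.81 to 10.7 CPM after PBS and 9.47 to 11.8 CPM after both. Gp1ba was near the floor, at 0.121 to 0.142 CPM after PBS and 0.256 to 0.368 CPM after both. It passed the filter on low counts only through libraries with a cytokine. The part of platelets in the level of Alox12 was not tested.

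Alox15 (chr11:70344152-70352031) encodes the leukocyte-type lipoxygenase of macrophages and eosinophils. It had the lowest mean of the 10 genes in all 4 groups, with libraries overlapping those of Alox8 in PBS ears and of Ptgs2 after IL-36γ. Its level was 0.47, 2.49 and 0.91 CPM in PBS ears, 1.13, 0.76 and 1.01 CPM after IL-17A, 7.49, 3.59 and 3.24 CPM after IL-36γ, and 4.68, 2.05 and 4.88 CPM after both. All IL-36γ libraries lay above all PBS and IL-17A libraries, whereas IL-17A + IL-36γ replicate 2 lay below PBS replicate 2.
Alox15 had a log2 fold change of -0.42 after IL-17A (SE 0.59, edgeR adjusted p = 0.654), 1.88 after IL-36γ (SE 0.52, adjusted p = 0.0195) and 1.58 after both (SE 0.53, adjusted p = 0.0288). Against IL-17A, Alox15 rose by 2.31 after IL-36γ (SE 0.55, edgeR adjusted p = 0.0283) and by 2.01 after both (SE 0.56, adjusted p = 0.0169). The counts were low, and both calls against PBS were lost when only the 2 groups entered the fit, with adjusted p-values of 0.0533 and 0.0653.
The call after IL-36γ was also lost without IL-36γ replicate 1 (1.38, adjusted p = 0.0958) or PBS replicate 3 (1.69, adjusted p = 0.0834), and the call after both without IL-17A + IL-36γ replicate 1 or 3 or PBS replicate 1 or 3, with log2 values of 1.43, 1.39, 1.18 and 1.39. Without PBS replicate 2, the PBS library with the highest value, the changes were larger, at 2.79 after IL-36γ (adjusted p = 0.0041) and 2.497 after both (adjusted p = 0.0034). The 4 eosinophil markers summed to 0.61 to 1.33 CPM after PBS and 2.72 to 6.02 CPM after IL-36γ, with PBS replicate 2 again the highest of its group. After IL-36γ and after both, 3 of the 3 tested were called raised, beside 5.11% and 7.35% of all genes. Epx, the marker not tested, was at 0 to 0.0554 CPM after PBS and 0 to 0.0344 CPM after IL-36γ. Among those tested, Prg2 was also near the floor, at 0.0277 to 0.0909 CPM after PBS and 0.172 to 0.599 CPM after IL-36γ. Prg2 passed the filter on low counts only through libraries with IL-36γ, so its calls were in part set by the filter. The part of eosinophils in the level of Alox15 was not tested.

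Beyond PBS, 0 of 9 genes were called by edgeR between both cytokines and IL-36γ, beside 0.0103% of all genes, with 2 of 9 at an unadjusted p-value below 0.05 (Alox12e and Ptgs1), as were 15.1% of all genes. DESeq2 called 1 of the 9, Alox12e, beside 0.828% of all genes. Between both cytokines and IL-17A, 2 of 9 were called, Alox15 raised and Alox12e lowered, beside 8.95% of all genes, 4.46% raised and 4.49% lowered, and 5 of 9 passed the adjusted p-value alone, beside 32.7%. Between IL-36γ and IL-17A, 1 of 9 was called, Alox15 raised, beside 1.61% of all genes and 1.25% raised, and 3 of 9 passed the adjusted p-value alone, beside 7.98%, among them Alox12b, which passed narrowly as given above. This call of Alox15 was lost without any 1 of the IL-17A libraries or without IL-36γ replicate 1 or 2 (adjusted p from 0.0616 to 0.126), and its call between both cytokines and IL-17A without IL-17A replicate 2 or IL-17A + IL-36γ replicate 1 (adjusted p = 0.0645 and 0.0536). The test of the interaction called 0 of 9 by edgeR and 0 of 9 by DESeq2, beside 0.551% of all genes by edgeR and 13.7% by DESeq2. An unadjusted p-value below 0.05 was found for 2 of 9 (Alox5ap and Alox12e), as for 22.5% of all genes.

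Set side by side per exon length, the 10 genes changed their order between the groups. In PBS ears the order of the mean RPKM was Ptgs1, Alox12e, Alox12b, Alox5ap, Aloxe3, Alox12, Alox5, Ptgs2, Alox8 and Alox15. Alox12e and Alox12b overlapped, and so did Ptgs2, Alox8 and Alox15 as neighbours at 1.02 ± 0.23, 1.01 ± 1.12 and 0.53 ± 0.43 RPKM (SD, n = 3). Ptgs1, at 48.4 to 51.0 RPKM, also overlapped with Alox12b, at 33.6 to 50.9 RPKM. In the IL-17A group the order was Ptgs1, Alox12b, Alox12e, Alox5ap, Aloxe3, Alox12, Alox5, Alox8, Ptgs2 and Alox15, and the neighbours did not overlap only at the steps from Alox5ap to Aloxe3 and from Ptgs2 to Alox15. In the IL-36γ group Alox8 stood first at 69.4 ± 16.04 RPKM, overlapping with Alox12b at 56.5 ± 9.37 RPKM and with Ptgs1 at 53.0 ± 2.62 RPKM. In the IL-17A + IL-36γ group Alox8 stood first at 86.1 ± 35.5 RPKM, overlapping with Alox12b at 65.0 ± 11.2 RPKM. Alox12e stood at 31.1 ± 6.36 RPKM after IL-36γ, overlapping with Alox5ap, and at 12.3 ± 4.15 RPKM after both, overlapping with Aloxe3 at 8.83 ± 1.56 RPKM (SD, n = 3 each).

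The make-up of the summed level of the 7 lipoxygenase genes showed the same values as shares. The sum was 101 to 108 RPKM in the PBS libraries, 70.4 to 99.7 RPKM after IL-17A, 152 to 197 RPKM after IL-36γ and 140 to 236 RPKM after both. Alox8 made up 0.279% to 2.15% of the sum after PBS, 3.07% to 5.95% after IL-17A, 35.5% to 43.7% after IL-36γ and 39.9% to 53.1% after both. Alox12e made up 29.2% to 43.2% after PBS, 30.0% to 34.7% after IL-17A, 13.4% to 20.1% after IL-36γ and 4.04% to 9.70% after both, and the share of Alox12b was 32.2% to 47.0% after PBS and 32.9% to 40.2% after both. The shares depend on one another, since the large rise of Alox8 lowers those of the other genes, and they describe mRNA and not enzyme activity.

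**Figure D3:**
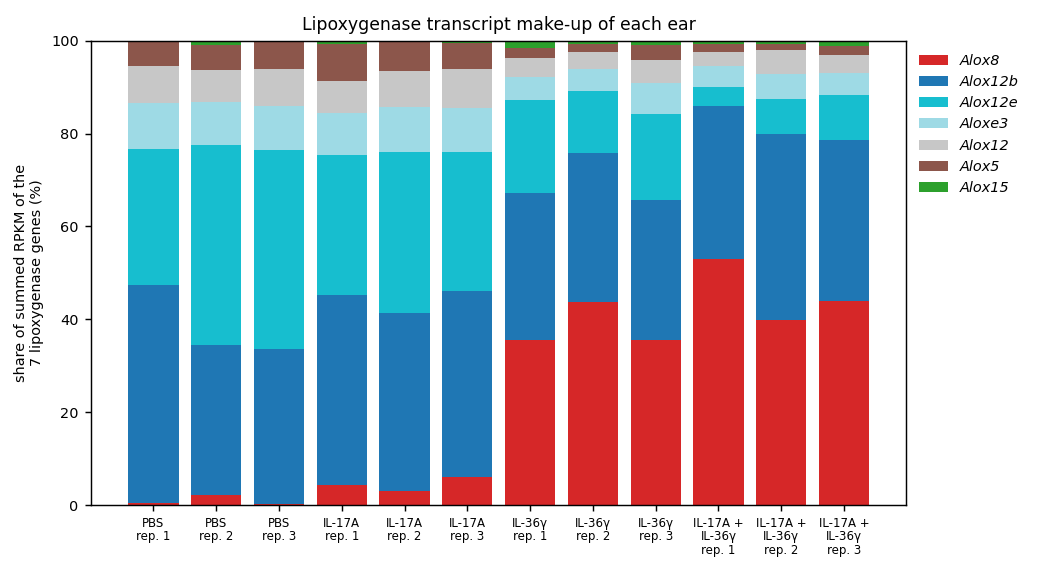
Share (percent) of each of 7 lipoxygenase genes in their summed RPKM, stacked to 100 for each of the 12 libraries. Alox8 takes 0.279% to 2.15% in the PBS libraries and 35.5% to 53.1% in the 6 libraries with IL-36γ, and Alox12e takes 4.04% to 9.70% with both cytokines.

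The other genes of the pathway were read from 7 lists with 54 genes, of which 52 were tested and Pla2g10 and Gpr31b were not. After IL-17A, 2 of the 52 were called raised and 0 lowered, after IL-36γ 4 raised and 2 lowered, and after both 9 raised and 3 lowered. Over all genes, 1.07%, 5.11% and 7.35% were called raised and 1.03%, 1.98% and 6.06% lowered in these comparisons. The median log2 change of the 52 genes was 0.11, 0.25 and 0.23 in the 3 comparisons, beside 0.04, -0.02 and -0.03 over all genes tested.

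Among the phospholipases A2 that release arachidonic acid, 3 of 10 tested were raised and 1 was lowered after both cytokines, beside 7.35% and 6.06% of all genes. Pla2g4d, a cytosolic phospholipase A2, was at 0.747, 0.595 and 0.455 CPM after PBS and at 11.9, 2.85 and 4.21 CPM after both, a log2 change of 3.38 (SE 0.80, edgeR adjusted p = 0.0052). Pla2g4e, chosen here after its values were seen as a far more abundant relative, was at 49.8, 35.8 and 34.2 CPM after PBS and 226, 168 and 150 CPM after both (log2 change 2.18, SE 0.24, edgeR adjusted p = 4.69e-05). In both genes all libraries with both cytokines lay above all PBS libraries.
The secreted phospholipase Pla2g5 was the 1 that fell, from 26.1, 32.7 and 32.1 CPM after PBS to 10.9, 11.4 and 14.4 CPM after both, a log2 change of -1.30 (SE 0.17, edgeR adjusted p = 0.000113).

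In the list of leukotriene synthesis, 1 of 5 genes was called lowered after IL-36γ, beside 1.98% of all genes. After both cytokines 1 was called raised and 1 lowered, beside 7.35% and 6.06% of all genes. Ltc4s, the synthase of cysteinyl leukotrienes, was the gene that fell. Ltc4s was at 3.79, 5.38 and 4.46 CPM in PBS ears, 3.57, 4.49 and 3.82 CPM after IL-17A, 1.70, 1.07 and 1.93 CPM after IL-36γ, and 1.01, 0.805 and 1.10 CPM after both. The 6 libraries with IL-36γ lay below the 6 without it, with log2 changes against PBS of -1.54 after IL-36γ (SE 0.22, edgeR adjusted p = 0.000589) and -2.21 after both (SE 0.24, adjusted p = 3.97e-05). Mgst2, a microsomal glutathione transferase that can also make leukotriene C and is named here after its values were seen, was the gene that rose. It was at 14.1, 11.1 and 11.3 CPM after PBS and at 24.2, 25.2 and 24.5 CPM after both, with no overlap (log2 change 1.02, SE 0.12, edgeR adjusted p = 5.97e-05). Lta4h, the hydrolase of the leukotriene B branch, was not called in any of the 3 comparisons, with log2 changes of 0.21, 0.26 and 0.24. All its libraries with a cytokine, at 57.7 to 64.4 CPM, lay above the PBS libraries, at 48.3 to 54.2 CPM.
Cyp4f18, a cytochrome P450 that inactivates leukotriene B, was at 1.27, 2.83 and 1.64 CPM in PBS ears, 5.49, 2.59 and 3.90 CPM after IL-17A, 9.25, 9.59 and 9.71 CPM after IL-36γ and 13.1, 9.51 and 9.56 CPM after both. The IL-17A libraries overlapped with PBS and the libraries with IL-36γ did not. Its log2 change was 1.05 after IL-17A (SE 0.30, edgeR adjusted p = 0.0466), which was called, 2.31 after IL-36γ (SE 0.30, edgeR adjusted p = 0.000306) and 2.48 after both (SE 0.30, adjusted p = 8.14e-05).

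In the prostanoid branch, the terminal synthases differed in direction. Tbxas1, the thromboxane synthase, was at 2.49, 3.43 and 2.79 CPM after PBS and at 7.92, 9.78 and 5.99 CPM after IL-36γ (log2 change 1.44, SE 0.20, edgeR adjusted p = 0.000542). Ptgds, a prostaglandin D synthase, was at 4.71, 3.00 and 3.43 CPM after PBS and at 2.03, 1.43 and 1.03 CPM after IL-36γ (log2 change -1.31, SE 0.27, edgeR adjusted p = 0.0048), with 1.60, 1.65 and 1.54 CPM after both (-1.22, adjusted p = 0.0038). The groups did not overlap with PBS in either gene. Ptges, the inducible prostaglandin E synthase, was at 64.7 to 71.0 CPM after PBS and 67.2 to 86.8 CPM after IL-17A. It was at 88.4 to 121 CPM after IL-36γ and 115 to 157 CPM after both, above all libraries without IL-36γ. The log2 changes of 0.12, 0.66 and 0.96 were not called, the last lying just under the threshold on the fold change.

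Among receptors, Fpr2, a receptor of leukocytes for formyl peptides and lipoxin, had the largest rise of the 52 genes in each comparison with PBS. It was at 0.0554, 0.425 and 0 CPM in PBS ears, 2.14, 0.532 and 0.965 CPM after IL-17A, 2.16, 3.99 and 2.34 CPM after IL-36γ, and 9.33, 5.23 and 4.92 CPM after both. The log2 change was 2.86 (SE 0.79, edgeR adjusted p = 0.0427), 4.09 (SE 0.73, adjusted p = 0.0021) and 5.28 (SE 0.71, adjusted p = 0.000159), against PBS libraries with few counts, and it lay beside the neutrophil markers in its order of groups. The part of neutrophils in the level of Fpr2 was not tested.

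**Figure D4:**
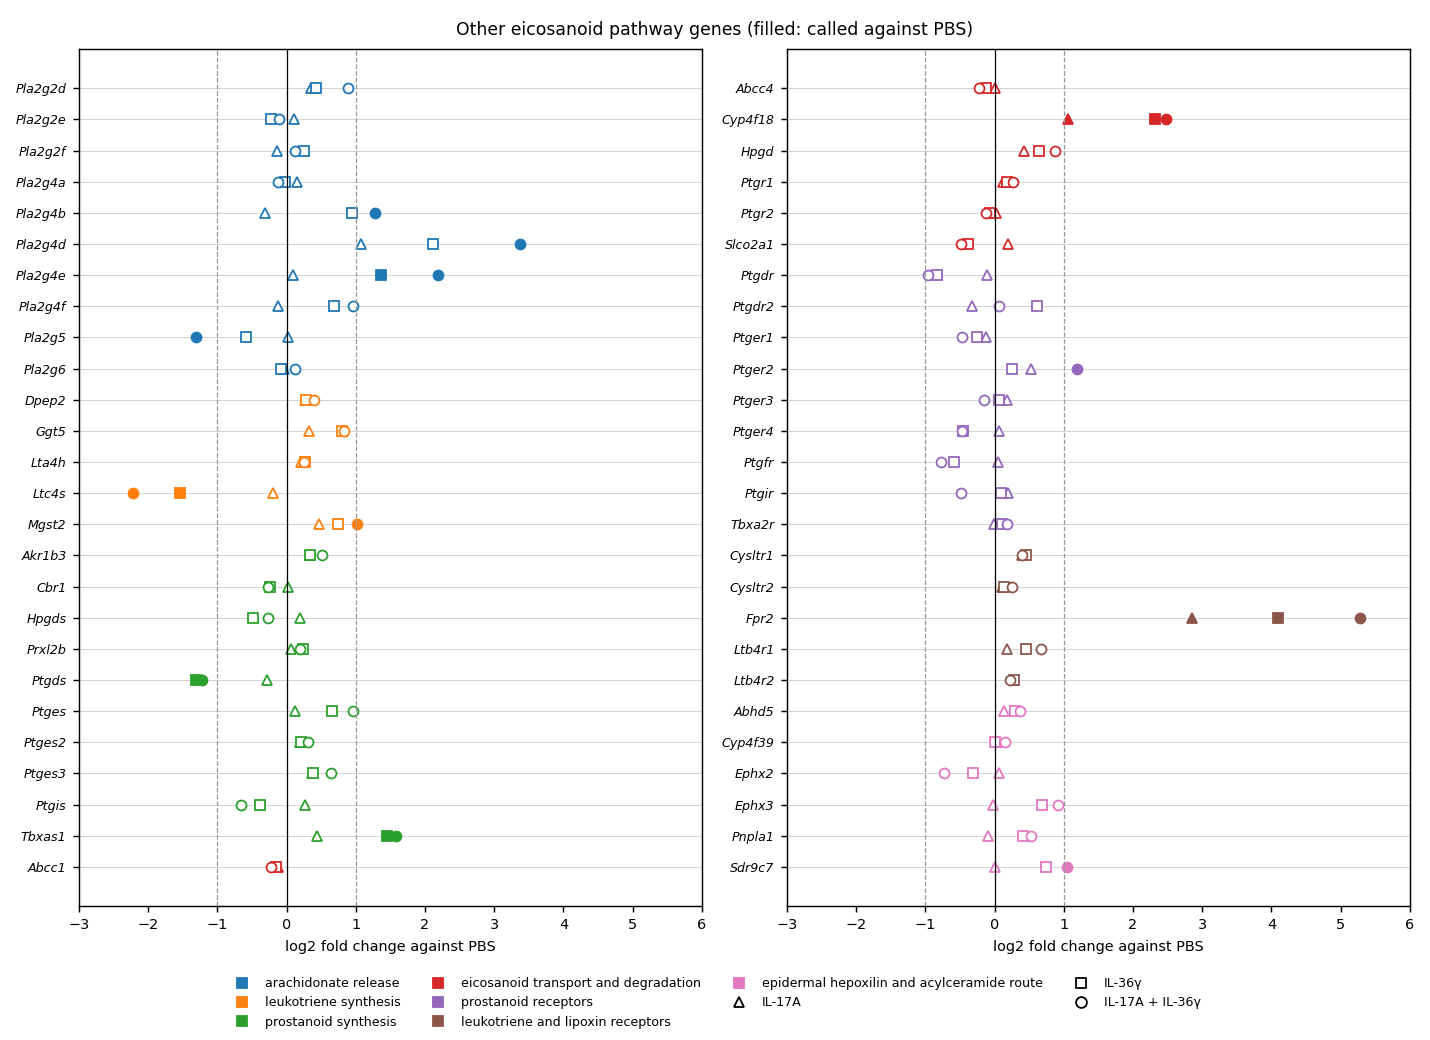
Log2 fold change against PBS (log2 scale) of the 52 tested pathway genes, coloured by list, with triangles for IL-17A, squares for IL-36γ, circles for both cytokines, filled symbols for called genes and dashed lines at the fold change threshold. Fpr2 lies highest at 2.86, 4.09 and 5.28 and Ltc4s lowest at -2.21 after both cytokines.

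The genes whose log2 CPM was most alike to that of each of 3 members over the 12 libraries are given as a description, since the libraries share the groups. For Alox8 they were Itgam, an integrin chain of myeloid cells (Pearson's r = 0.98), Tarm1, Clec4a2, Chil1 and Ablim1, all at r = 0.98. For Alox12b they were Tgm1, the transglutaminase of the cornified envelope (r = 0.98), Lypd5 and Grhl3, a transcription factor of the epidermis (r = 0.98 each). For Ptgs2 they were Epgn, a ligand of the EGF receptor (r = 0.96), Nfil3 (r = 0.96) and Stt3a (r = 0.94).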

How the data were processed

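RNA of the ears of 12 mice was sequenced from stranded total RNA libraries. The authors deposited counts of reads per Ensembl gene, not normalized; their processing notes name STAR 2.5.2b, featureCounts of Subread 1.5.1, DESeq2 1.30.0 and mm10. The annotation release and the strand setting of the counting are not given in the sources used here. Deposited tables of fold changes and p-values of the authors' comparisons were used only to match symbols. Groups came from the sample labels.

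Counts were analysed in R 4.3.3 with edgeR 4.0.16: filterByExpr (minimum count 10), TMM scaling, and glmQLFit and glmQLFTest on the means of 4 groups. DESeq2 1.42.0 was an alternative. The interaction is the change by IL-17A with IL-36γ minus that without it, called at an adjusted p-value below 0.05. RPKM values divide CPM by the union of exons of GENCODE vM21 (GRCm38), and promoters came from RefSeq. The procedure was tested on simulated data. No library was a copy of another, with a chi-square per gene of 7.09 to 64.0 over 12 pairs of a group.

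The members, the lists and the tests were chosen with earlier results of these data known. Genes named are the 10 members, the 3 most raised and 3 most lowered pathway genes called without overlap in each comparison with PBS, the genes most alike to 3 members, and those named as chosen later or to complete a branch (Pla2g4e, Mgst2, Lta4h and Ptges). Alternatives were other scalings, filters and tools, fits of 2 groups, calls by the adjusted p-value alone, a block for the replicate number, and each library left out. Histology and qRT-PCR were not analysed here.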

Additional observations from a re-analysis of the deposited data

How the results depend on the processing

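The number of the 9 tested genes called after IL-17A was 2 without the fold change threshold and 0 with only the 2 groups compared. Without that threshold it was 5 for both cytokines against IL-17A and 3 for IL-36γ against IL-17A, and for both cytokines against IL-36γ it was 1 by DESeq2 and 1 with no filter on low counts. Leaving out 1 library at a time gave 0 to 1 genes called after IL-17A, 1 to 3 after IL-36γ and 3 to 4 after both, and 0 to 1 for both against IL-36γ, 1 to 3 for both against IL-17A, 0 to 1 for IL-36γ against IL-17A and 0 to 0 for the interaction. The share of all genes called moved as well, from 0.0559% to 4.62%, 5.32% to 9.11% and 11.2% to 16% in the 3 comparisons with PBS, and from 0% to 0.313%, 6.52% to 10.1%, 0.348% to 1.86% and 0.00505% to 7.77% in the other 4. The highest share in each comparison with PBS and for the interaction came without PBS replicate 1. With any other library left out, the interaction reached at most 1.14%. Values near 0 changed sign: Ptgs1 after IL-36γ was -0.046 with library size as the only scaling, which moved the median of all genes against PBS to -0.13, -0.16 and -0.17, and with 1 library left out the values after IL-17A ranged from -0.29 to 0.042 for Alox12b (highest without PBS replicate 1), -0.83 to 0.48 for Alox15 (highest without PBS replicate 2) and -0.065 to 0.012 for Alox5 (highest without IL-17A replicate 3). The cause was not tested. With the replicate number as a block, 1, 3, 4, 0, 2, 1 and 0 genes were called in the 7 comparisons, as without the block, and the adjusted p-value of Alox12b between IL-36γ and IL-17A was 0.0529. The numbers were not taken to pair the mice, since 9 of the 18 pairs of libraries with the same number, and not all, had a correlation over 0.1 (-0.20 to 0.35). As a hint from the data, not the design, 8 of 12 libraries correlated best with their own number, and the median correlation was 0.097 for pairs with the same number and -0.050 for the others. Low counts limit Alox15, Fpr2 and Alox8 in PBS ears, and 3 mice per group limit all tests.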
